A study of Bos taurus with 16 samples.

Results

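Legumain and the lysosomal cathepsins are the proteases that break down protein inside the acid compartment of the cell. The genes described here are LGMN, CTSB, CTSC, CTSD, CTSH, CTSK, CTSL, CTSS and CTSZ, 9 of the 20629 features (genes and unnamed transcripts) counted in the series. They were chosen by name, with earlier results of these counts in view, all 9 occurred in the files, and 8 passed the filter on low counts in each fit, CTSL being the exception. Most cathepsins are cysteine proteases of the papain type, while CTSD is an aspartic protease and legumain cuts after asparagine. They are made as inactive precursors and carried to lysosomes largely through mannose 6-phosphate tags, and cystatins inhibit the cysteine proteases among them, legumain included, but not CTSD. Macrophages and other antigen-presenting cells are rich in them, and in the ovary they are known from work in several species for matrix remodelling around ovulation and for the clearance of dying cells.

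RNA of 16 bovine libraries, 7 labelled treatment and 9 labelled control, was sequenced after poly(A) selection. Per the labels' protocols, each came from the granulosa cell pellet of an aspirated dominant follicle of a Holstein cow at 63 ± 3 days after calving. The labels do not say what treatment stands for and give the tissue as blood, while the title of the series concerns the time after a uterine disease has resolved. Per the series' design text, cows with metritis were given the antibiotic ceftiofur, and the cows of the cohort began a synchronisation of ovulation with GnRH and prostaglandin F2α before aspiration. The cows were lactating, and no age is given. No label ties a library to a cow, and p-values therefore measure only how far these libraries spread.

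The libraries were of 2 kinds. INHA, the inhibin alpha subunit made by granulosa cells, was above 1000 CPM (a gene's counts scaled to a common library total, with that total corrected by the trimmed mean of M-values, TMM) in 9 libraries, called granulosa-rich here, and under 200 CPM in 7, called leukocyte-rich. The nearest libraries on either side were treatment replicate 1 at 97.6 CPM and treatment replicate 4 at 1580 CPM. Leukocyte-rich were treatment replicates 1, 2 and 3 and control replicates 1, 5, 6 and 9, and granulosa-rich were treatment replicates 4, 5, 6 and 7 and control replicates 2, 3, 4, 7 and 8. These kinds are a description, selected on INHA, and no group that the study itself defined. The 13 monocyte and macrophage markers found of 14 listed summed to 6180 to 14900 CPM in the leukocyte-rich treatment libraries and 7310 to 10700 CPM in the leukocyte-rich control libraries. They summed to 371 to 1770 CPM in the granulosa-rich treatment libraries and 27.3 to 722 CPM in the granulosa-rich control libraries. CD163 was at 0 in all 5 granulosa-rich control libraries and in none of the 4 granulosa-rich treatment libraries, and C1QB was at 0 in all 5 and in 2 of the 4. Both were near the floor, where 3 counts correspond to 0.21 to 0.396 CPM. In the granulosa-rich treatment libraries CD163 was 0.0887 to 1.89 CPM and C1QB at most 0.266 CPM. CD14, by contrast, was above 0 in every library, at 5.45 to 200 CPM in granulosa-rich control and 48.2 to 299 CPM in granulosa-rich treatment libraries. Granulosa markers, all 15 found, had a mean of 1.07 to 6.07 log2 CPM in the leukocyte-rich and 8.8 to 10.9 log2 CPM in the granulosa-rich libraries. The labelled granulosa identity thus went with high granulosa markers in 9 of 16 libraries. Library totals over named and unnamed transcripts lay between 8004595 and 14138964 counts.

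The protease genes were high in leukocyte-rich and low in granulosa-rich libraries. Together the 9 genes held 2.12 to 3.47% of all counts in a leukocyte-rich library, against 0.0353 to 0.753% in a granulosa-rich one. For 6 of the 9 genes, LGMN, CTSC, CTSH, CTSK, CTSS and CTSZ, every leukocyte-rich library lay above every granulosa-rich one. The same held for 10.5% of the 9653 features tested over all 16 libraries, and the opposite for 8.52%. The kinds were drawn from measured values, so these levels are a description and were not tested. Fewer cells of a type and less RNA per cell cannot be told apart in such bulk samples. Levels are compared within a gene, across libraries, and not between genes, because no transcript lengths were at hand.

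**Figure D1:**
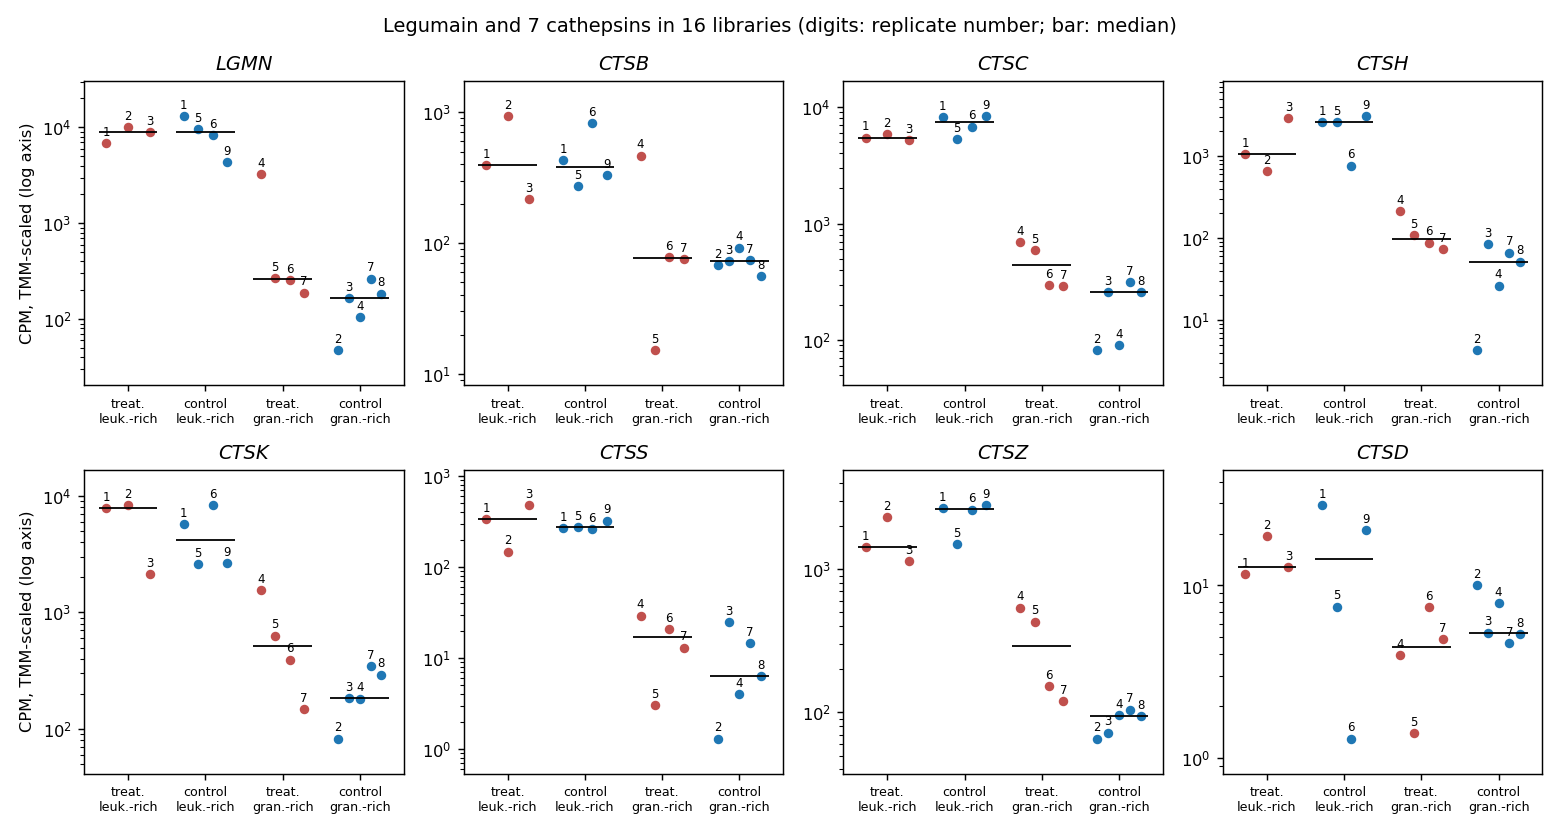
CPM (TMM-scaled, log axis) of 8 protease genes in each library, by kind of library and label, with treatment left of control in each kind; digits are replicate numbers and bars are medians. LGMN, CTSC, CTSH, CTSK, CTSS and CTSZ show no overlap between the 7 leukocyte-rich and the 9 granulosa-rich libraries, and treatment replicate 4 stands highest of the granulosa-rich libraries for LGMN at 3272 CPM.

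LGMN encodes legumain, which also trims several cathepsins to their mature chains. It had the largest ratio between kinds among the 9 genes, with a median of 8910 CPM in leukocyte-rich libraries and 189 CPM in granulosa-rich ones, a ratio of 47.1. Its leukocyte-rich values spanned 4340 to 13100 CPM and its granulosa-rich values 47.8 to 3270 CPM. The top granulosa-rich library thus came close to the bottom leukocyte-rich one.

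CTSH, an aminopeptidase, had a median of 2560 CPM in leukocyte-rich libraries and 72.4 CPM in granulosa-rich libraries, a ratio of 35.3. CTSZ, a carboxypeptidase, stood at 2320 and 105 CPM, a ratio of 22.2, and CTSC, which removes dipeptides and activates the serine proteases of leukocyte granules, at 5810 and 292 CPM, a ratio of 19.9. CTSK, known as the collagenase of osteoclasts, stood at 5690 and 293 CPM, a ratio of 19.4. CTSS, which cuts the invariant chain of MHC class II molecules, stood at 275 and 13.01 CPM, a ratio of 21.1. For scale, the monocyte and macrophage markers CD14 and CSF1R had ratios of 51.1 and 28.1, but C1QC of the same list one of 2.7. Of the pan-leukocyte markers, PTPRC had a ratio of 4.13 and ITGB2 one of 21.8. The median log2 ratio, taken on medians plus 1 CPM, was 4.3 over the 8 protease genes and 4.05 over 12 monocyte and macrophage markers. It was 3.17 over 8 pan-leukocyte markers and 0.03 over all features tested. What part the marker-bearing cells have in these levels was not tested.

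CTSB and CTSD stood out from the rest by smaller ratios and by overlap between the kinds. CTSB, both an endopeptidase and a carboxypeptidase, had medians of 394 CPM in leukocyte-rich and 74.2 CPM in granulosa-rich libraries, a ratio of 5.31. Its granulosa-rich values spanned 15.2 to 465 CPM and its leukocyte-rich values 215 to 933 CPM. Apart from treatment replicates 4 and 5, the granulosa-rich libraries lay within 56.2 to 92.4 CPM. CTSD had medians of 12.8 and 5.21 CPM, a ratio of 2.45, and its lowest value of all, 1.29 CPM, was in a leukocyte-rich library, control replicate 6.

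The low counts of CTSL and CTSD came with an accession question. CTSL (NM_001083686.2) had at most 5 counts in any library and 27 in all, where 3 counts correspond to 0.21 to 0.396 CPM, so its level was not measurable at this depth. A second gene, CTSV (NM_174032.2), for which RefSeq lists CTSL, CTSL1 and CTSL2 as synonyms, had 32953 counts. CTSV ran opposite to the others, with a median of 13.3 CPM in leukocyte-rich and 285 CPM in granulosa-rich libraries, and every leukocyte-rich library (at most 25.5 CPM) lay below every granulosa-rich one (at least 238 CPM). It was singled out after its values were seen. How the submitters placed reads that match both genes is not given in the sources used here, so the split between them is uncertain. For CTSB 99.9% and for CTSD 99.7% of counts were on a predicted accession (XM_005209822.3 and XM_005227295.3) and not on the curated one. That CTSD accession summed to 1811 counts over 16 libraries. For CTSC the predicted accession XM_010820809.2 held 8.25 to 26.6% of the gene's counts.

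Within the 7 leukocyte-rich libraries the proteases did not move as one. CTSK was 7810, 8349 and 2126 CPM in treatment replicates 1, 2 and 3, and 5687, 2598, 8300 and 2656 CPM in control replicates 1, 5, 6 and 9. CTSB was 394, 933 and 215 CPM in the same treatment libraries and 431, 272, 828 and 330 CPM in the same control libraries. CTSH was 1053, 659 and 2881 CPM in these treatment libraries and 2603, 2558, 764 and 3056 CPM in these control libraries. The libraries with the highest CTSK, namely treatment replicates 1 and 2 and control replicate 6, were the 3 with the lowest CTSH. The values of treatment and control overlapped for all 3 genes. CTSC varied least, between 5180 and 8330 CPM, and CTSS lay between 148 and 483 CPM.

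**Figure D2:**
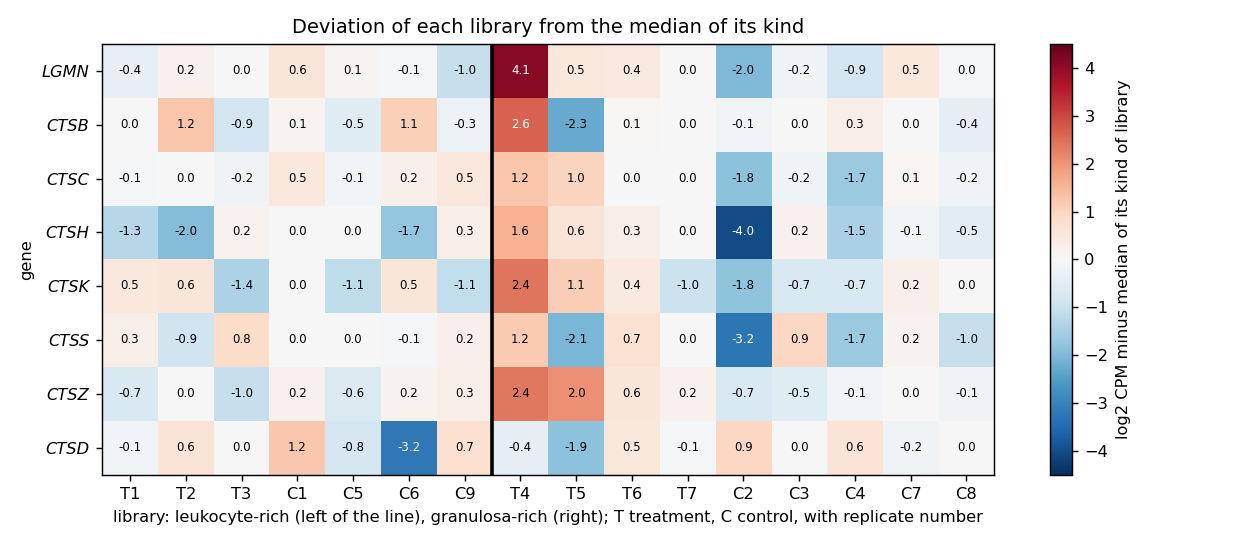
Deviation of log2 CPM in each library (columns) from the median of its kind of library, for 8 protease genes (rows); T is treatment and C control, with the replicate number, and red is above and blue below the median. In the leukocyte-rich libraries T1, T2 and C6, CTSK is 0.46 to 0.55 above and CTSH 1.28 to 1.96 below the median, and among granulosa-rich libraries T4 is above it for 7 of the 8 genes.

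With the mean of each kind taken off, the gene pairs whose log2 CPM followed each other most closely over the 16 libraries were CTSZ with CTSC (Pearson r = 0.80), CTSH with CTSC (r = 0.80), CTSK with LGMN (r = 0.79) and CTSZ with CTSK (r = 0.78). CTSB and CTSH had r = -0.04 by this measure, and CTSD had r between -0.38 and 0.07 with the other 7. All points of such a correlation share a library and its scaling, and they are given as descriptions. Each of the 8 genes but CTSD spread more over the granulosa-rich libraries, so its r leans on that kind. For CTSC the highest value was 8.39 times the lowest there, against 1.61 times in the leukocyte-rich libraries. For CTSD it was 7.22 against 22.8 times. No r of these pairs was taken within a kind. Among all named features, RENBP (r = 0.93) and SIRT2 (r = 0.92) were most like CTSZ, MMP14 (r = 0.92) and TMX3 (r = 0.91) most like CTSB, and ITGB2, a leukocyte integrin chain (r = 0.93), and GRK3 (r = 0.93) most like CTSS. CSF1R (r = 0.90) and TYROBP (r = 0.89), both monocyte and macrophage markers, were most like CTSH, FABP5 (r = 0.95) and NRP2 (r = 0.93) most like CTSC, and FOLR2 (r = 0.93) and CD68 (r = 0.89) most like LGMN. ANGPT2 (r = 0.94) was most like CTSK and LHFPL2 (r = 0.84) most like CTSD. None of the 3 closest features of any of the 8 genes was another of the 8.

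Whether the proteases differed with the label was tested with edgeR's quasi-likelihood method on all features, with p-values adjusted after Benjamini and Hochberg. In the 4 granulosa-rich treatment libraries 7 of 8 protease genes had higher fitted values than in the 5 granulosa-rich control libraries, with a median log2 fold change of 1.29, against 0.04 over all features tested, of which 52.9% had higher fitted values. None of the 8 passed an adjusted p of 0.05, as 0 of all 9272 features did (0%). At an unadjusted p under 0.05 there were 4 of 8, CTSZ, LGMN, CTSK and CTSC, all higher, where 1.95% of all features were higher and 4.67% differed in either direction (433 features). limma-voom also called 0 features, with CTSZ, CTSC and CTSH at an unadjusted p under 0.05 but neither LGMN nor CTSK, and DESeq2 called 26, none of them a protease gene of the 8.

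CTSZ had the lowest p of the 8 and ranked 9th of the 9272 features. It was 538, 431, 153 and 120 CPM in treatment replicates 4, 5, 6 and 7, and 65.6, 72.2, 96.1, 105 and 94.7 CPM in control replicates 2, 3, 4, 7 and 8. Every treatment library lay above every control library, as for 0.712% of features (the opposite held for 0.755% of features and for none of the 8 genes), and the 2 lowest treatment values lay near the highest control value. The fitted difference was 3.56-fold (log2 fold change 1.83 ± 0.42, SE, edgeR quasi-likelihood, unadjusted p = 0.0013, adjusted p = 0.983). With DESeq2 its adjusted p was 0.0513.

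LGMN was 3272, 269, 257 and 189 CPM in treatment replicates 4 to 7, and 47.8, 166, 104, 265 and 184 CPM in control replicates 2, 3, 4, 7 and 8. Control replicate 7 lay above 2 treatment libraries, so the groups overlapped. The fitted log2 fold change was 2.71 ± 0.88 (SE, edgeR, unadjusted p = 0.0106, adjusted p = 0.983). With limma-voom it was 1.79 (unadjusted p = 0.0545). It was 0.63 without treatment replicate 4, the library that also had the highest monocyte and macrophage score of the granulosa-rich ones, 4.76 mean log2 CPM.

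CTSK was 1561, 632, 394 and 149 CPM in treatment replicates 4 to 7, and 82.8, 183, 183, 346 and 293 CPM in control replicates 2, 3, 4, 7 and 8. The 3 highest of the 9 libraries were treatment libraries, and treatment replicate 7 lay below 4 of the 5 control libraries. Its log2 fold change was 1.66 ± 0.60 (SE, edgeR, unadjusted p = 0.0194, adjusted p = 0.983), and 0.83 without treatment replicate 4. With limma-voom CTSK had an unadjusted p of 0.0622. CTSC was 692, 588, 295 and 293 CPM in treatment replicates 4 to 7, and 82.4, 258, 91.2, 312 and 256 CPM in control replicates 2, 3, 4, 7 and 8. In these TMM-scaled values only control replicate 7, whose TMM factor was 0.614, reached into the range of the treatment libraries. With library size alone it was at 192 CPM. The highest control library, replicate 3, was then at 286 CPM and the lowest treatment library, replicate 7, at 288 CPM. The log2 fold change of CTSC was 1.21 ± 0.46 (SE, edgeR, unadjusted p = 0.0233, adjusted p = 0.983).

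CTSH was 213, 108, 87.9 and 72.4 CPM in treatment replicates 4 to 7, and 4.31, 83.5, 26.2, 66.2 and 51.4 CPM in control replicates 2, 3, 4, 7 and 8. Here 1 control library, replicate 3, lay above the lowest treatment library. Its log2 fold change was 1.37 ± 0.66 (SE, edgeR, unadjusted p = 0.0641, adjusted p = 0.983). CTSB was at 1.13 ± 0.73, CTSS at 0.69 ± 0.83 and CTSD at -0.58 ± 0.55 (log2 fold change, SE), and CTSB was at -0.38 without treatment replicate 4 and at 0.19 with limma-voom. In treatment replicate 5 the proteases parted, with CTSZ, CTSK, CTSC, CTSH and LGMN second highest of the 9 libraries in TMM-scaled CPM. There CTSB at 15.2 CPM and CTSD at 1.39 CPM were the lowest and CTSS, at 3.02 CPM, the second lowest. With library size alone CTSH in that library was 87.5 CPM, below treatment replicate 6 (98 CPM) and control replicate 3 (92.5 CPM). LGMN was then 217 CPM, below treatment replicate 6 at 286 CPM. CTSV was at -0.26 ± 0.31 (log2 fold change, SE, adjusted p = 0.984).

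**Figure D3:**
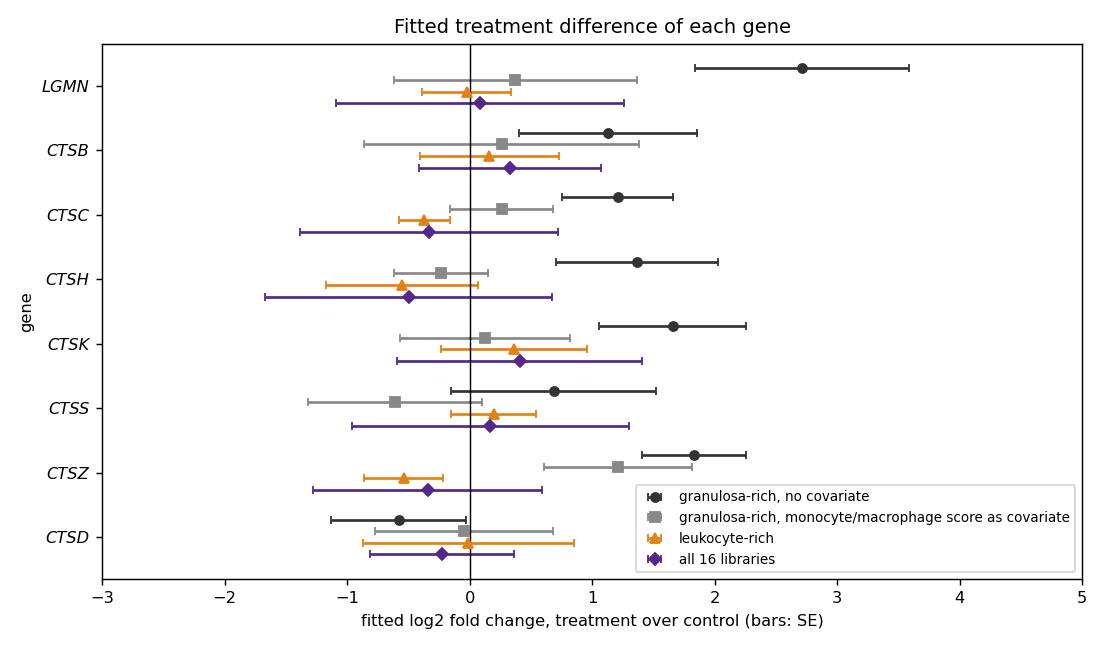
Fitted log2 fold change, treatment over control, with its SE, for 8 protease genes in the 9 granulosa-rich libraries without and with the monocyte and macrophage score as a covariate, in the 7 leukocyte-rich libraries and in all 16. LGMN and CTSZ stand farthest right in the granulosa-rich libraries at 2.71 and 1.83, and with the covariate LGMN is at 0.37 and CTSZ at 1.21.

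Monocyte and macrophage markers moved with the same comparison. In the granulosa-rich libraries all 10 of them that were tested were higher in the fit, their median log2 fold change being 1.24, and 0 passed. All 8 pan-leukocyte markers were also higher in the fit (median 0.26), whereas 4 of 5 theca markers (median -1.51) and 12 of 15 granulosa markers (median -0.48) were lower. T and NK cell markers were higher for 5 of 6 (median 0.60) and B cell markers for 3 of 3 (median 0.10), 1 of 2 neutrophil markers was higher, and all 3 epithelial markers were lower (median -1.82). The 1 endothelial marker tested, VWF, was at 3.26 ± 1.46 (SE, edgeR, unadjusted p = 0.0485, adjusted p = 0.983). It had a median of 2.36 and a maximum of 37.3 CPM in treatment, and a maximum of 2.64 CPM in control. The 4 endothelial markers summed to 37.7 CPM in treatment replicate 7 but to 3.56, 1.39 and 1.6 CPM in treatment replicates 4, 5 and 6. Of those not tested, CDH5 was at 0 in 3 treatment and 0 control libraries, and TIE1 had medians of 0.328 and 1.4 CPM in treatment and control. With the mean log2 CPM of the 13 monocyte and macrophage markers as a covariate, an alternative added after seeing the data, the log2 fold change was 1.21 ± 0.60 for CTSZ (edgeR, unadjusted p = 0.0723, adjusted p = 1). It was 0.37 ± 0.99 for LGMN, 0.26 ± 0.42 for CTSC and 0.13 ± 0.69 for CTSK (SE). CTSH stood at -0.24 ± 0.38 and CTSS at -0.61 ± 0.71, below 0 where the fit without the covariate had them above it. CTSB was at 0.26 ± 1.12 and CTSD at -0.04 ± 0.73. The score itself differed with the label, at 2.85 to 4.76 in these treatment and -0.303 to 3.45 in these control libraries. What part the marker-bearing cells have in the protease differences was not tested.

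The relation to the monocyte and macrophage score was then measured within each kind of library, 16 relations in all. In the 9 granulosa-rich libraries CTSH followed the score most closely (Pearson r = 0.978, two-sided exact permutation p = 5.51e-06, adjusted p = 8.82e-05, Spearman rho = 0.983 with exact p = 4.96e-05, n = 9). CTSC had r = 0.899 (exact permutation p = 0.000146, adjusted p = 0.00117, rho = 0.917 with exact p = 0.00131) and LGMN r = 0.83 (exact permutation p = 0.0125, adjusted p = 0.0399, rho = 0.867 with exact p = 0.00451). CTSK had r = 0.821 (exact permutation p = 0.00801, adjusted p = 0.0399, rho = 0.883 with exact p = 0.00308) and CTSS r = 0.778 (exact permutation p = 0.0104, adjusted p = 0.0399, rho = 0.633 with exact p = 0.076). Without control replicate 2 and treatment replicate 4, the lowest and the highest score, r was 0.944 for CTSH (exact permutation adjusted p = 0.00635), 0.787 for CTSC and 0.738 for LGMN, and 0.496 for CTSK and 0.387 for CTSS. With 7 libraries left, CTSH alone still passed. CTSC and LGMN kept most of their r, while that of CTSK and CTSS fell further.

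For CTSZ, CTSB and CTSD the Pearson relation to the score did not pass in the granulosa-rich libraries. CTSZ had r = 0.724 (exact permutation p = 0.0291, adjusted p = 0.0665, rho = 0.8 with exact p = 0.0138, adjusted p = 0.0443), and 0.525 without those 2 libraries. CTSB had r = 0.229 (exact permutation p = 0.521, adjusted p = 0.581, rho = 0.183 with exact p = 0.644) and CTSD r = -0.606 (exact permutation p = 0.0961, adjusted p = 0.154, rho = -0.717 with exact p = 0.0369). In the 7 leukocyte-rich libraries CTSK ran against the score (r = -0.834, exact permutation p = 0.0185, adjusted p = 0.0492, rho = -0.857 with exact p = 0.0238). Without treatment replicate 3 and control replicate 5, the 2 with the highest score, r was -0.591 over 5 libraries, too few for this test to bear on the call. CTSB had r = -0.784 (exact permutation p = 0.0377, adjusted p = 0.0754, rho = -0.75) and CTSH r = 0.746 (exact permutation p = 0.0528, adjusted p = 0.0938, rho = 0.643) there. The other 5 had an unadjusted exact permutation p from 0.162 to 0.581 in those libraries. The genes and the score share the library and its scaling.

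**Figure D4:**
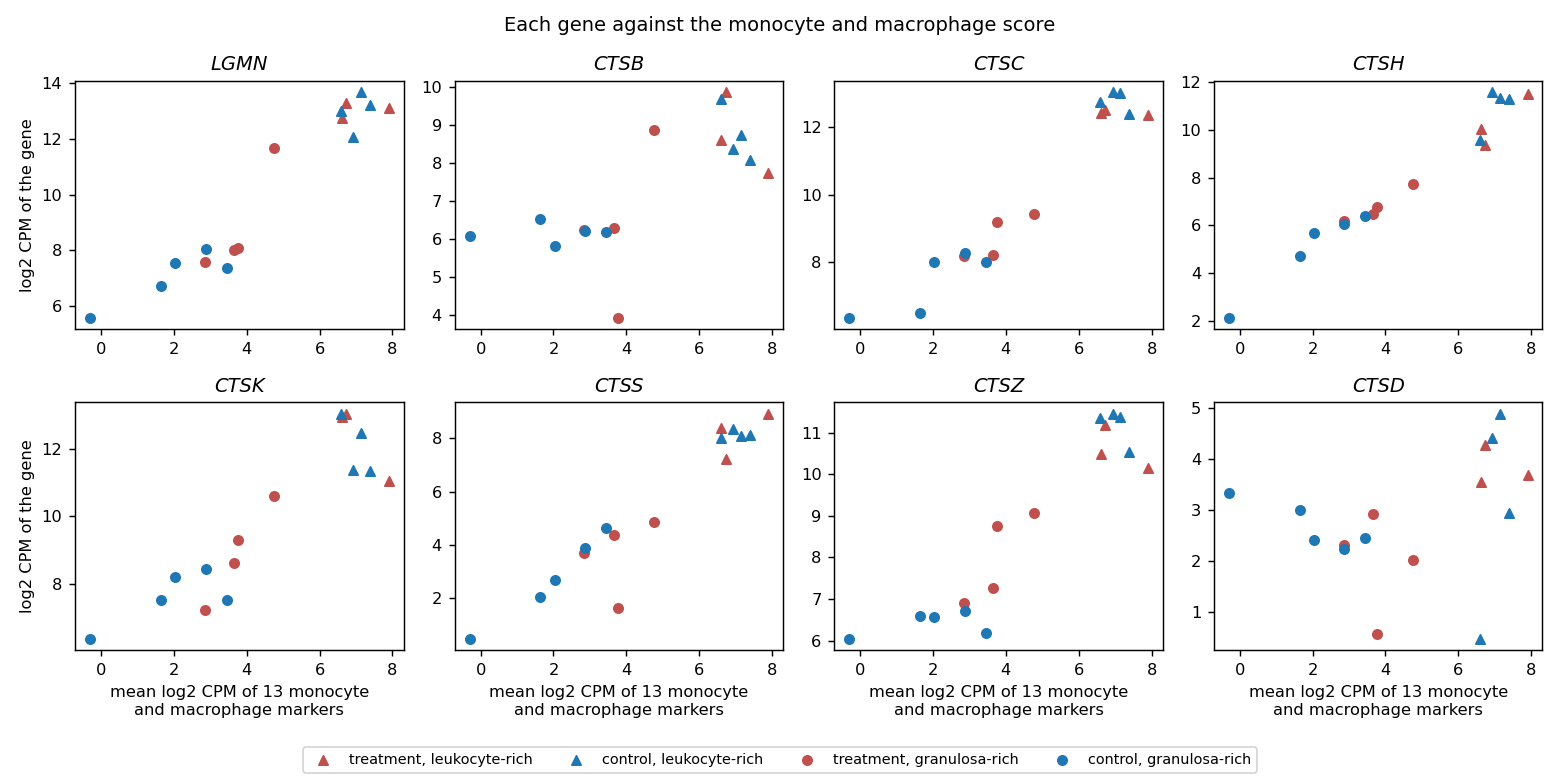
Log2 CPM of each of 8 protease genes (vertical) against the mean log2 CPM of 13 monocyte and macrophage markers (horizontal) in 16 libraries; triangles are leukocyte-rich, circles granulosa-rich, red treatment and blue control. Among the circles CTSH lies closest to a line (r = 0.978), while CTSB is nearly level (r = 0.229).

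In the leukocyte-rich libraries, 3 treatment against 4 control, 3 of 8 protease genes had higher and 5 lower fitted values in treatment (median log2 fold change -0.02, against 0.01 over all features). None passed with edgeR's quasi-likelihood test, as 0 of 9912 features did (0%), and 0 of the 8 had an unadjusted p under 0.05, against 2.61% of features (259), of which 1.41% were higher. No gene of the 8 had every treatment library above or below every control library, as 1.88% (above) and 2.5% (below) of features had. DESeq2 and limma-voom called 0 features as well. The largest differences were CTSH at -0.55 ± 0.62, CTSZ at -0.54 ± 0.32 and CTSC at -0.37 ± 0.21 (log2 fold change, SE). CTSH rested on single libraries, at -1.39 without treatment replicate 3 and -0.19 without treatment replicate 2. CTSZ was 1433, 2318 and 1143 CPM in treatment replicates 1, 2 and 3, and 2659, 1493, 2605 and 2811 CPM in control replicates 1, 5, 6 and 9. CTSC was 5446, 5811 and 5180 CPM in these treatment libraries, and 8154, 5290, 6783 and 8332 CPM in these control libraries. Both overlapped through control replicate 5. LGMN was at -0.03 ± 0.36. Cell type markers moved in this comparison too, though none passed. Higher in the fit were 13 of 14 granulosa markers (median 1.53), 5 of 5 theca (1.14), 3 of 3 epithelial (2.21) and 7 of 8 T and NK cell markers (0.85). The granulosa markers summed to 5810, 363 and 162 CPM in treatment replicates 1, 2 and 3, against 174 to 841 CPM in the control libraries. Theca markers summed to 5390, 7230 and 348 CPM in the same treatment libraries, against 227 to 1360 CPM in control. Neither list was thus higher in every treatment library. All 3 B cell markers were lower (median -2.08). Of 12 monocyte and macrophage markers 6 were higher and 6 lower (median 0.02). What part these have in the protease values was not tested.

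The difference of the treatment effect between the kinds of library was tested as an interaction. Of the 8 genes 7 had a more negative effect in leukocyte-rich than in granulosa-rich libraries, with a median of -1.46 on the log2 scale, against -0.06 over all features, 46.9% of which had a positive difference. Cell type markers moved with it: all 12 monocyte and macrophage markers tested were negative (median -1.31) and all 15 granulosa markers positive (median 1.80), and their part in the proteases' difference was not tested. The mean log2 CPM of the granulosa markers was 6.07, 2.55 and 1.07 in leukocyte-rich treatment replicates 1, 2 and 3, against 1.53 to 3.24 in control. It was 10.1, 10.6, 10.6 and 8.8 in granulosa-rich treatment replicates 4 to 7, against 10.4 to 10.9 in control. No feature passed (edgeR, 0 of 9653 features, 0%, with 515 or 5.34% at an unadjusted p under 0.05, and 2.76% at that p with a positive difference). CTSZ was at -2.39 ± 0.61 (SE, unadjusted p = 0.00126, adjusted p = 0.729), LGMN at -2.74 ± 1.15 (unadjusted p = 0.0305, adjusted p = 0.914) and CTSC at -1.60 ± 0.60 (unadjusted p = 0.0173, adjusted p = 0.914). Without treatment replicate 4 the LGMN value was -0.68.

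Over all 16 libraries, 4 of the 8 genes had higher and 4 lower fitted values in treatment, where 52.1% of features were higher, and the largest difference was -0.50 ± 1.17 (log2 fold change, SE) for CTSH. CTSH was at -1.48 without treatment replicate 3 and at -0.08 without control replicate 9. None passed (edgeR, 0 of 9653 features, 0%, adjusted p = 0.9999 for each of the 8), and 0 of the 8 had an unadjusted p under 0.05, against 1.69% of features (163). DESeq2 and limma-voom called 0 features. CTSZ averaged 9.12 ± 1.62 log2 CPM in treatment (SD, n = 7) and 8.53 ± 2.53 log2 CPM in control (SD, n = 9), yet its fitted log2 fold change was -0.34 ± 0.93 (SE). The same disagreement in sign between mean log2 values and fit held for CTSC and CTSH, and once the kind of library was a covariate, the fitted values of CTSZ, CTSC and CTSH were 0.88, 0.56 and 0.59.

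The rest of the lysosome was read from lists written with earlier results of these data known. The proton pump that acidifies lysosomes had the smallest median ratio of these lists between the kinds of library. Of its 14 genes tested 3 were above in every leukocyte-rich library and 0 below, where 10.5% of all features were above and 8.52% below. The same shares stand beside the lists that follow. The median log2 ratio of the pump genes was 0.33, and ATP6AP1 stood at a median of 584 CPM in leukocyte-rich and 464 CPM in granulosa-rich libraries. Of 23 other lysosomal hydrolases 12 were above and 1 below without overlap (median 1.56). They included PPT1, a thioesterase, at 1370 and 341 CPM, and PSAP, the precursor of the saposins, which overlapped, at 6600 and 1640 CPM. AGA, which splits asparagine from sugar, was the one below, at 8.51 and 31.2 CPM. Of 9 lysosomal membrane genes 4 were above (median 0.92), among them LAMP1 at 2100 and 619 CPM, while NPC1, the cholesterol exporter, stood at 282 and 376 CPM.

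Genes that sort the proteases or inhibit them were also listed. Of 5 sorting genes tested 3 were above and 0 below (median 1.32), against 10.5% and 8.52% of all features. NAGPA, which uncovers the mannose 6-phosphate tag, stood at a median of 127 CPM in leukocyte-rich and 20.9 CPM in granulosa-rich libraries, whereas IGF2R, the large receptor of that tag, stood at 491 and 433 CPM. CST3, cystatin C, the one cystatin of 5 that passed the filter, overlapped at 444 and 242 CPM. TFEB, a regulator of lysosomal genes, stood at 16.8 and 2.97 CPM. The invariant chain CD74 stood at 249 and 27.3 CPM and the thiol reductase IFI30 at 405 and 205 CPM, both overlapping. Besides CTSV, the other cathepsins tested were CTSA, a serine carboxypeptidase at 1790 and 237 CPM, CTSF at 9.02 and 2.27 CPM and CTSW at 8.87 and 2.37 CPM.

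**Figure D5:**
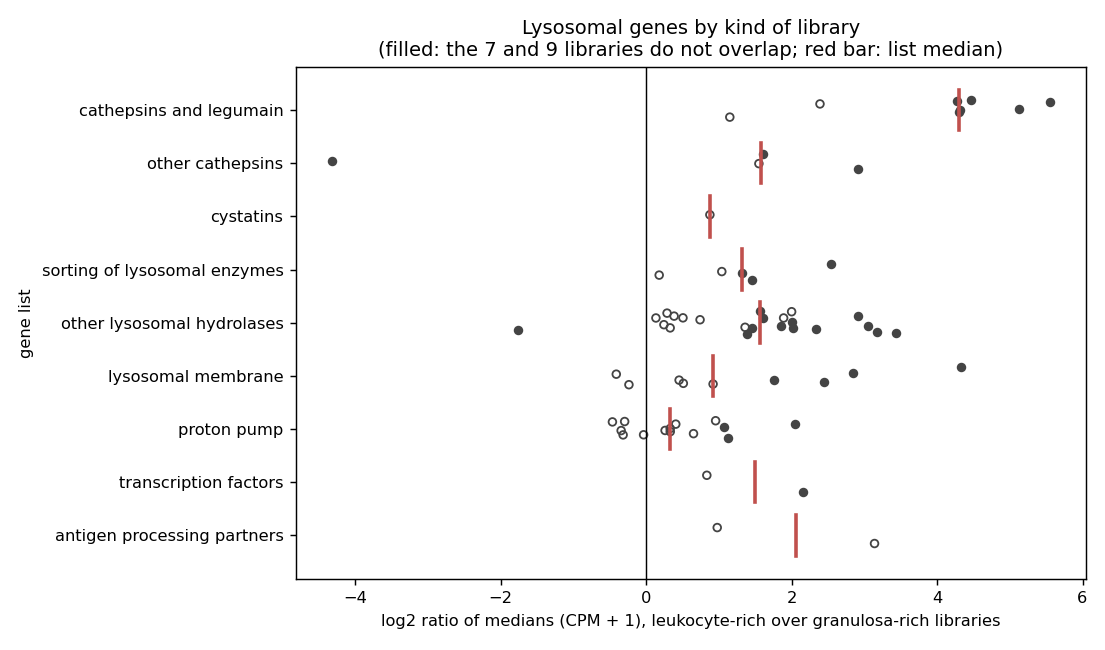
Log2 ratio of medians (CPM plus 1), leukocyte-rich over granulosa-rich libraries, for each gene tested of 9 lists of lysosomal genes; filled points are genes whose 7 leukocyte-rich and 9 granulosa-rich libraries do not overlap, and red bars are list medians. The median is 4.3 for the proteases, 1.56 for other hydrolases and 0.33 for the proton pump, and CTSV is the filled point far to the left.

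Between treatment and control in the granulosa-rich libraries these other lists had medians closer to that of all features than the proteases had. No gene of any of them passed (edgeR). The median log2 fold change was 0.11 for 22 other hydrolases (13 with higher and 9 with lower fitted values), -0.05 for 9 membrane genes (4 and 5), 0.01 for 14 proton pump genes (7 and 7) and 0.04 for 5 sorting genes (3 and 2). It was 0.34 for 4 other cathepsins, CTSV included (3 and 1), 0.41 for CD74 and IFI30 and 0.24 for the 2 transcription factors tested, all 4 of which had higher fitted values. An unadjusted p under 0.05 was found for 1 of the 22 other hydrolases, 1 of the 14 proton pump genes and no gene of the remaining lysosomal lists, where 4.67% of all features had one, so these counts are not a result about the lists. The 2 genes are named for having the lowest p of their lists. GUSB, beta-glucuronidase, was at 0.68 ± 0.27 (SE) with 7.21 ± 0.55 log2 CPM in treatment (SD, n = 4) and 6.57 ± 0.32 in control (SD, n = 5). ATP6V1D, a subunit of the pump, was at -0.96 ± 0.36 (SE) with 4.37 ± 0.41 log2 CPM in treatment and 5.30 ± 0.51 in control (SD, n = 4 and 5). CTSA was at 0.49 ± 0.28, CTSW at 1.65 ± 0.95 and CST3 at -0.38 ± 0.41 (log2 fold change, SE).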

How the data were processed

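The deposited files hold whole-number read counts per RefSeq accession, not normalized, and list only accessions that had a count, so a missing accession was set to 0. The submitters' processing notes name the tools cutadapt, Bowtie2 and SAMtools. How reads with several matches were handled was not given in the sources used here, nor were tool versions, genome build or annotation. Per the labels' protocols, 200 ng of RNA (integrity number 7 or more) went into poly(A) libraries with 12 cycles of amplification and a kit that, to common knowledge, does not mark strand, so overlapping and antisense genes cannot be told apart.

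Genomic records (133 accessions, 0.712 to 1.92% of a library's counts) were left out. RefSeq's table of ARS-UCD2.0 served for names only: 18973 of 27173 accessions, with 95.1% of counts, matched a symbol when versions were ignored. Counts were summed per symbol, giving 12429 genes and 20629 features with unmatched transcripts. No coordinates or sequences were used.

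Treatment was compared with control with edgeR 4.0.16 in R 4.3.3 (TMM, filterByExpr, robust quasi-likelihood test, Benjamini-Hochberg threshold 0.05, SE as log2 fold change over the root of F), over all libraries and within each kind. Log2 CPM uses a prior count of 1. Totals were 8004595 to 14138964 counts, and 3 counts equal 0.21 to 0.396 CPM, which covers counting error only. No 2 libraries agreed within sampling noise (highest correlation 0.953, lowest chi-square per gene 71.8). Alternatives were other scalings and filters, DESeq2 1.42.0, limma-voom (limma 3.58.1), no robust estimation, single accessions, the replicate block, covariates and leaving out each library. The tests were tried on counts simulated with a common dispersion and no kinds of library. That setting is simpler than these data, and nothing is concluded from it here. All 9 genes were named by symbol, and for each the 3 features with the highest Pearson r after removal of the mean of the kind of library were sought. From every other list the 2 genes of lowest p and the 2 of highest level could be named, and any other was chosen after its values were seen. The genes, lists and the split by INHA were chosen with earlier results of these data known.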

Additional observations from a re-analysis of the deposited data

Results flagged for a closer look

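Of 40 groups of 4 to 10 libraries looked at, 5 for each of 8 genes, 3 held a library whose gap to its nearest neighbour took up nearly the whole range of the group, and chance flags about 1 in 20 groups. LGMN in the granulosa-rich treatment libraries had treatment replicate 4 at 3270 CPM, with the gap at 0.876 of the range of log2 CPM (n = 4). CTSZ in the leukocyte-rich control libraries had control replicate 5 at 1490 CPM, below the other 3 (0.88 of the range, n = 4). CTSH in the same libraries had control replicate 6 at 764 CPM, below the other 3 (0.87 of the range, n = 4).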

How the results depend on the processing

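No protease gene passed in any of the 4 comparisons under any alternative run. The number of all features called in the granulosa-rich libraries was 26 with DESeq2 and 0 otherwise. Leaving out each library gave 0 to 0 calls among the protease genes in every comparison. The 6 genes without overlap between kinds of library were 6 with library size alone, and the number of relations to the marker score that passed was 6, 8 with library size alone and 1 without the 2 libraries farthest from the median score. That last number rests on 7 and 5 libraries, and 5 give the test little reach. Among the granulosa-rich libraries CTSC and LGMN kept r at 0.787 and 0.738. DESeq2 gave no p for LGMN in the granulosa-rich libraries. Whether the replicate numbers pair the libraries could not be settled. Over all 16 the correlations of same-numbered deviations ran from -0.605 to 0.605. They were positive where both libraries were of the same kind and negative where they were not, so they follow the kind. In the granulosa-rich libraries only numbers 4 and 7 are shared, at -0.134 and 0.132, too few to tell. In no case was the same-numbered control library the closest. The number of features at an unadjusted p under 0.05 was 51 with the replicate block, against 163, over all 16 libraries and 1022, against 433, in the granulosa-rich ones, and 0 features passed in either. In the granulosa-rich libraries that block leaves only the shared numbers 4 and 7 to inform the label difference. The 1022 and the 433 features thus rest on unlike sets of libraries, as does the value of 1.39 for CTSZ with the block there. Over all 16 libraries with the block CTSZ was at 0.68, CTSD at 0.00597, CTSH at 0.64, CTSC at 0.65 and CTSV at 0.16, all against negative values without it.

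Other changes of sign concern log2 fold changes that did not pass, and their cause was not tested. Over all 16 libraries limma-voom gave CTSZ 0.57, CTSH 0.64, CTSC 0.51 and CTSV 0.0126, the kind of library as covariate gave CTSZ 0.88, CTSH 0.59, CTSC 0.56 and CTSV 0.0805, and the marker score as covariate gave CTSB -0.0046, CTSS -0.37, LGMN -0.0292 and CTSV 0.98. In the granulosa-rich libraries the marker score gave CTSS -0.61 and CTSH -0.24. In the leukocyte-rich libraries limma-voom gave CTSD 0.75 and LGMN 0.0689, and the marker score gave CTSD 0.00357. Without the 2 farthest libraries r was -0.459 for CTSB in the granulosa-rich libraries, and 0.534 for CTSZ and 0.789 for CTSC in the leukocyte-rich ones. With 1 library left out, the ranges that crossed 0 were, over all 16, CTSB -0.26 to 0.84, CTSD -0.55 to 0.16, CTSK -0.10 to 1.01, CTSS -0.51 to 0.47, CTSV -0.65 to 0.15 and LGMN -0.29 to 0.57. They were CTSB -0.38 to 1.51 in the granulosa-rich libraries, CTSB -0.60 to 0.59, CTSD -0.41 to 0.56, CTSS -0.22 to 0.54 and LGMN -0.25 to 0.23 in the leukocyte-rich ones, and CTSB -1.73 to 0.53 for the interaction. In the granulosa-rich libraries CTSZ stayed between 1.41 and 2.10. Ranges wide but on 1 side of 0 were LGMN -3.08 to -0.68 for the interaction, and CTSH -1.39 to -0.19 in the leukocyte-rich libraries and -1.48 to -0.08 over all 16. With limma-voom the granulosa-rich values of LGMN and CTSB were 1.79 and 0.19, against 2.71 and 1.13.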
